A study of Mus musculus with 9 samples.

Results

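The 8 genes described here encode surface molecules of T cells, grouped as activation markers: Cd69, Icos, Cd2, Cd48, Slamf1, Cd44, Tfrc and Cd38. They were chosen by symbol, and each matched 1 of the 25757 gene entries of the count table. Acacetin, a plant flavone, was given at 0, 5 or 10 μM to mouse CD4+ T cells, and bulk RNA-seq was performed on 3 libraries per concentration, 9 in all. The comparison asks how the transcriptome of activated CD4+ T cells differs with the concentration of the compound.

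All cells were wild type (WT), and naive CD4+ T cells had been taken from the spleen and the lymph nodes of mice without disease. The mice bought for the work were male BALB/c animals aged 6 to 7 weeks. Every group was activated on plates coated with antibodies against CD3 and CD28, and the labels give the concentration of acacetin as the difference between groups. There was no unstimulated group. The compound was dissolved in DMSO and present from the start of the culture, and RNA was taken on day 3. The culture medium is named differently in the methods and in the sample labels. The libraries are labelled as biological replicates, but nothing says that they came from separate animals, so the p-values measure only the spread between these cultures.

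A resting T cell that meets its antigen passes through an ordered change of its surface. CD69, a C-type lectin, appears within hours and fades when the signal ends. CD44, a receptor for hyaluronan, is a lasting marker of activation. The transferrin receptor (Tfrc), which brings in iron for growth and division, stays high as long as the cell expands. ICOS, a relative of CD28, is absent from resting cells and supports helper functions. CD2, its mouse ligand CD48 and SLAM (Slamf1) join T cells to their partners, and CD38 is an ectoenzyme that consumes NAD. These are properties of the proteins, whereas only mRNA was measured here. In bulk RNA, fewer cells carrying a transcript and less of it per cell cannot be told apart.

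The transferrin receptor message carries known regulatory hairpins in its 3′ untranslated region (3′ UTR), the iron-responsive elements, and these are shown because they set Tfrc apart from the other 7 genes in sequence. When iron is scarce, iron regulatory proteins bind the hairpins and protect the message from decay. A search for an unpaired C, 5 stem bases, the 6-base loop CAGTGN (N other than G) and 5 bases pairing with the stem (G-T pairs allowed, sense strand only) found 4 in the 2458-base 3′ UTR of Tfrc on chromosome 16. They are printed 5′ to 3′ from the GENCODE vM21 transcript (GRCm38), with the loop in capitals, and they start at bases 884, 1263, 1328 and 1375 of the UTR.
Tfrc hairpin 1: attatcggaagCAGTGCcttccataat
Tfrc hairpin 2: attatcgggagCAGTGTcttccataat
Tfrc hairpin 3: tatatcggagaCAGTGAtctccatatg
Tfrc hairpin 4: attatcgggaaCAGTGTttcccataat

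The same letters were found at least once in 68 of 11388 tested genes with a 3′ UTR of at least 30 bases (0.597%), and only Tfrc held more than 1. The search took only the longest coding transcript of each gene, so hairpins in other transcripts or with other letters were not counted. In the 5′ UTR, where such a hairpin blocks translation in place of protecting the message, 11 of 10807 tested genes held it (0.102%). Among these were both ferritin chains, the iron store of the cell, which serve as the counterpart of Tfrc in the iron results (Fth1 on chromosome 19 and Ftl1 on chromosome 7). A match describes the letters and is not evidence of binding in these cells.
Fth1 5′ UTR hairpin: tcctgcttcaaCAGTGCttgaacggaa
Ftl1 5′ UTR hairpin: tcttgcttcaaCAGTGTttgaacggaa

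The libraries held 19664981 to 24410715 estimated counts, and all 10 CD4 T cell markers (among them Cd3e, Cd4 and Lck) exceeded 10 CPM (counts scaled to library size with edgeR's TMM factors) at 0 μM, with sums of 4165 to 4261 CPM over all libraries. Of the other markers, 8 of 10 for B cells, 13 of 16 for myeloid cells and 5 of 6 for NK cells lay under 1 CPM at every concentration. The B cell sum was 144 to 152, 158 to 163 and 163 to 164 CPM at 0, 5 and 10 μM, nearly all of it Ighm, with Cd79a and Cd79b under 1 CPM. The NK cell sum was 3.28 to 3.92, 6.35 to 6.63 and 6.47 to 6.50 CPM, nearly all of it Eomes, which T cells also express, and Klra4 and Klra8 were at 0. Both sums were lower at 0 μM, as was the level of several genes described here, and their part in these results was not tested. Lung, erythroid and myeloid markers stood out in 10 μM replicate 1 (117, 23.6 and 16.6 CPM, at most 39.9, 2.49 and 6.91 elsewhere), and liver markers in 5 μM replicate 2 (41.5 CPM, at most 4.92 elsewhere). Results that changed without these libraries are given as such.

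Of the 8 genes, 3 rose (Cd69, Icos and Cd2) and 2 fell (Tfrc and Cd38) at 5 μM against 0 μM, and the same 5 moved the same way at 10 μM. Cd44, Cd48 and Slamf1 did not pass the test in either comparison. A call required an adjusted p under 0.05 (Benjamini-Hochberg over 12185 tested genes) in edgeR's quasi-likelihood test of all 9 libraries. By that rule 33.1% of all tested genes were called at 5 μM (16.3% higher and 16.8% lower) and 47.3% at 10 μM (23.8% higher and 23.6% lower), and the 5 of 8 stands beside these shares with no test of the list. Both comparisons share the 0 μM libraries. Cd38 was tested only because its 0 μM counts were high enough, so its difference gives no support, and without it 4 of 7 were called in each comparison, 3 up and 1 down. The groups did not overlap for 5 of the 7 at 5 μM and for 5 of the 7 at 10 μM, against 46.4% and 54.2% of all tested genes.

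**Figure D1:**
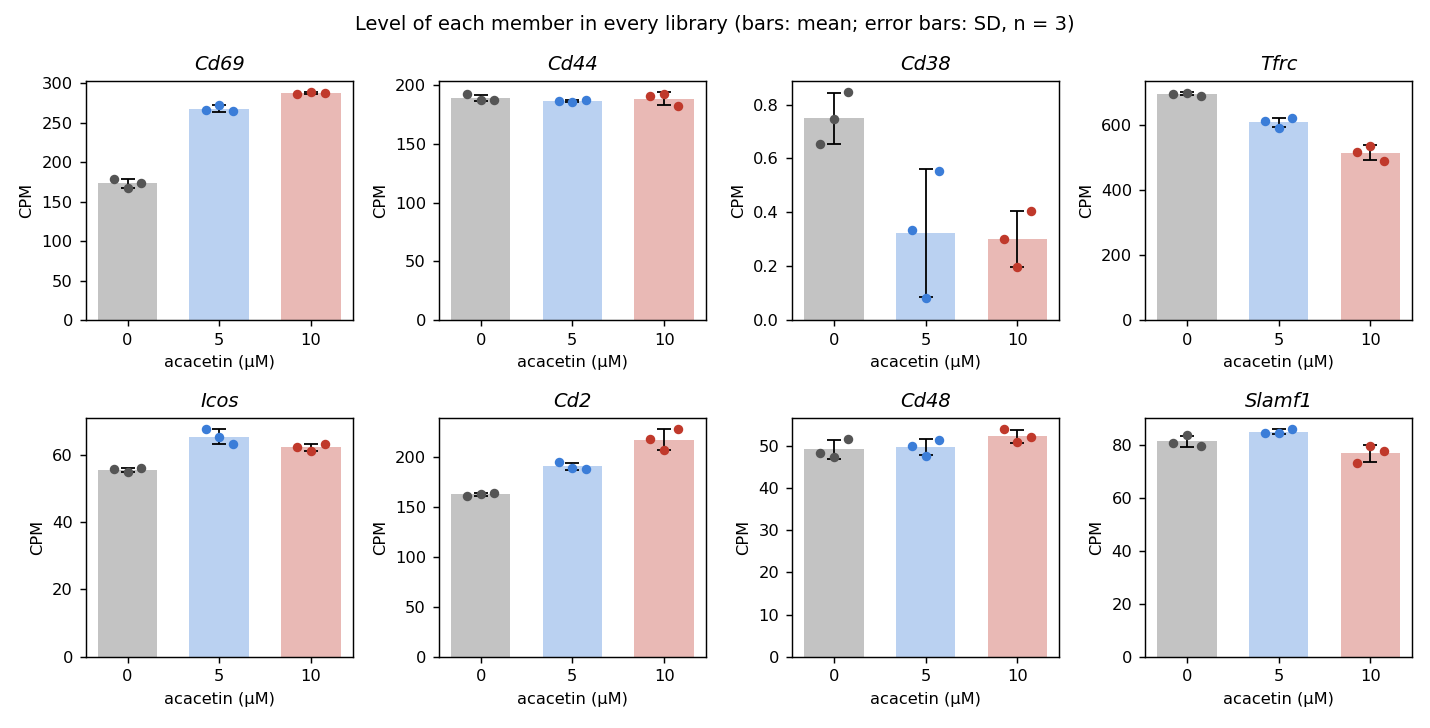
Level of each of the 8 genes in CPM (vertical axes, from 0) at 0, 5 and 10 μM acacetin (horizontal axes). Points are libraries, bars are means and error bars are SD (n = 3). Cd69 rises from 173 to 287 CPM, Tfrc falls from 697 to 515 CPM, and Cd38 stays under 1 CPM in every library.

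Cd69, the early activation lectin, showed the largest rise of the 8. Its level was 179, 167 and 174 CPM in 0 μM replicates 1 to 3. It was 265, 273 and 265 CPM at 5 μM, and 286, 288 and 287 CPM at 10 μM. The 3 groups did not overlap, and the 10 μM libraries lay within 3 CPM of each other. The means were 173 ± 5.98, 268 ± 4.55 and 287 ± 1.07 CPM (SD, n = 3). Expression was 1.55-fold higher at 5 μM (log2 fold change 0.63, standard error 0.0304, edgeR adjusted p = 5.2e-11) and 1.66-fold higher at 10 μM (0.73, adjusted p = 1.1e-12). Cd69 was thus the only one of the 8 apart from Cd38 that passed the study's 1.5-fold threshold. Over all tested genes the median size of a log2 change was 0.128 at 5 μM and 0.177 at 10 μM.

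Most of the rise of Cd69 was in place at 5 μM. The log2 difference between 10 and 5 μM was 0.10 (edgeR adjusted p = 0.039), and this call was lost in 11 of 18 alternative analyses, with adjusted p of 0.031 to 0.15. Among them were those without 5 μM replicate 1, 2 or 3, 10 μM replicate 1 or 3, or 0 μM replicate 3. A direct test asked whether the log2 level at 5 μM lay off the midpoint between 0 and 10 μM, where a change even in log2 over the concentrations would put it. Cd69 lay above the midpoint by 0.26 (95% interval 0.21 to 0.32, edgeR adjusted p = 1.2e-05), and this held in all 16 alternatives that could give a value, with differences of 0.25 to 0.28. At this test 3.83% of all tested genes were called, 277 above (2.27%) and 190 below the midpoint (1.56%) (390 and 140 when scaled by library totals).

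CD69 is known to bind the sphingosine 1-phosphate receptor S1PR1 on the surface and to draw it inside, which keeps lymphocytes in the tissue. S1pr1 itself rose from 8.57 ± 1.16 to 13.7 ± 0.694 and 17.1 ± 1.29 CPM (SD, n = 3, log2 fold changes 0.68 and 1.00, edgeR adjusted p = 3.1e-05 and 8.2e-08). Klf2, the transcription factor that drives S1pr1 in resting T cells, rose by 0.38 and 0.45 (adjusted p = 2.8e-05 and 1.4e-06). Transcripts of the early activation marker, of the receptor it binds and of that receptor's regulator were thus higher in the same groups.

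Of 10 measured genes listed as partners of CD69, 4 rose and 3 fell at 5 μM, and 5 rose and 2 fell at 10 μM. The median log2 change of the list was 0.06 and 0.14, against 0.00 over all tested genes, of which 33.1% and 47.3% were called. Ccr7, a homing receptor for lymph nodes, rose by 0.34 and 0.70 (edgeR adjusted p = 9.5e-09 and 1.8e-13). Lgals1, which encodes the CD69 ligand galectin-1, fell (log2 fold changes −0.64 and −0.78, adjusted p = 1.7e-10 and 2.5e-12). The list thus holds called genes in both directions.

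Cd69 lies on chromosome 6 among other C-type lectin genes of the NK gene complex, with Clec2d and Klrb1f among its nearest neighbours in RefSeq. Of 15 such lectins listed, 5 were expressed enough to be tested. Of these, 1 rose and 1 fell at 5 μM, and 3 rose and 1 fell at 10 μM. The shares called over all tested genes were 33.1% and 47.3%. Clec2d rose at 10 μM by 0.49 (edgeR adjusted p = 0.00084) and had a log2 difference of 0.23 at 5 μM (adjusted p = 0.11). Clec2i rose at 10 μM by 0.24 (adjusted p = 0.0019) and had 0.11 at 5 μM (adjusted p = 0.17). Klrb1f, with means of 0.474 CPM at 0 μM and 1.96 CPM at 10 μM, rose by 1.38 and 2.04 (adjusted p = 0.0049 and 4.5e-05). With so low a level at 0 μM, it may have passed the filter only through the treated libraries. If so, its differences give no support, as with Cd38, and the only rise called at 5 μM was that of Klrb1f. Klrk1, which encodes the activating receptor NKG2D, fell (log2 fold changes −1.14 and −1.74, adjusted p = 1e-04 and 7.7e-07). At 10 μM the listed lectins thus held called genes in both directions even with Klrb1f set aside. The fall was in Klrk1, which is not among the nearest neighbours of Cd69.

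Icos, the costimulatory receptor, rose by less and was no higher at 10 than at 5 μM. Its level was 55.7, 54.8 and 56.0 CPM in the 0 μM libraries. It was 67.6, 65.3 and 63.1 CPM at 5 μM, and 62.4, 61.1 and 63.1 CPM at 10 μM. Both treated groups lay above all 0 μM libraries, and the treated groups met at 63.1 CPM. Icos was higher by 17.7% at 5 μM (log2 fold change 0.24, standard error 0.041, edgeR adjusted p = 0.00021) and by 12.1% at 10 μM (0.16, adjusted p = 0.0029). Both calls held in all 18 alternatives. The difference between 10 and 5 μM was −0.07 (95% interval −0.16 to 0.01, adjusted p = 0.31). Icos at 5 μM lay above the midpoint of 0 and 10 μM by 0.15 (95% interval 0.08 to 0.23, adjusted p = 0.018). That call was lost without 5 μM replicate 1 (adjusted p = 0.099), without 5 μM replicate 2 (adjusted p = 0.078) and without both libraries that carried liver, lung or erythroid transcripts (adjusted p = 0.097).

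**Figure D2:**
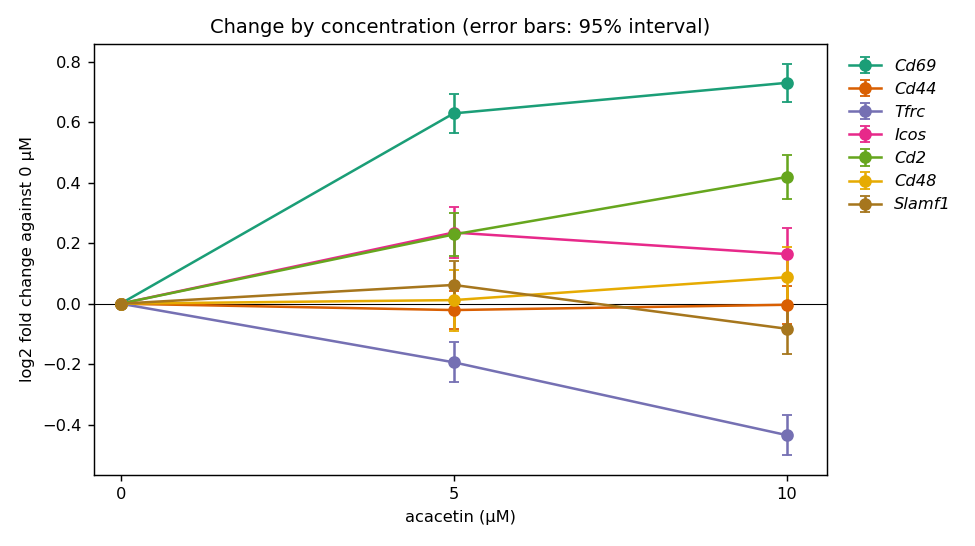
Log2 fold change against 0 μM (vertical axis) at 5 and 10 μM acacetin (horizontal axis) for the 7 genes other than Cd38, with 95% intervals of edgeR's fit. The point at 0 μM is 0 by construction. Cd69 reaches 0.63 at 5 μM and 0.73 at 10 μM, Tfrc and Cd2 move by similar steps in opposite directions, and Icos is at 0.24 and 0.16.

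Icos sits beside Cd28 and Ctla4 on chromosome 1, and the 3 neighbours did not move alike. Cd28, the primary costimulator through which the cells were activated, rose at 5 μM by 0.10 (edgeR adjusted p = 0.024) and had a log2 difference of −0.00 at 10 μM (adjusted p = 0.99). Ctla4, which encodes the inhibitory counterpart of CD28, fell at 10 μM by 0.18 (adjusted p = 0.00034) and had −0.01 at 5 μM (adjusted p = 0.89). Ctla4 was named after its values were seen, as the remaining neighbour of Icos.

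Of 9 measured genes listed for the CD28 family, its signalling and the control of Icos mRNA, 6 rose and 1 fell at 5 μM, and 4 rose and 2 fell at 10 μM. Their median log2 change was 0.15 and 0.10, where 33.1% and 47.3% of all tested genes were called. Pdcd1, the inhibitory receptor PD-1, fell from 70.8 ± 1.95 to 48.0 ± 1.83 and 34.7 ± 0.360 CPM (SD, n = 3, edgeR adjusted p = 1.8e-08 and 2.2e-12), whereas Btla, another inhibitory receptor, rose by 0.29 and 0.27 (adjusted p = 6.3e-07 and 5.4e-07). Pik3cd, the kinase subunit on which ICOS signalling depends, rose by 0.31 and 0.47 (adjusted p = 8.1e-08 and 1e-10). The Roquin proteins are known to repress Icos mRNA through its 3′ UTR, and any part of theirs in the level of Icos here was not tested. Rc3h2, which encodes Roquin-2, rose by 0.28 and 0.34 (adjusted p = 0.00036 and 3.4e-05), and Rc3h1, which encodes Roquin-1, rose at 5 μM by 0.23 (adjusted p = 0.0016) and had 0.10 at 10 μM (adjusted p = 0.13).

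Cd2, the adhesion receptor of T cells, rose with each concentration. Its level was 161, 163 and 163 CPM at 0 μM. It was 195, 189 and 188 CPM at 5 μM, and 218, 206 and 227 CPM at 10 μM. The 3 groups did not overlap, with means of 162 ± 1.24, 190.3 ± 3.85 and 217 ± 10.5 CPM (SD, n = 3). Cd2 was higher by 17.2% at 5 μM (log2 fold change 0.23, standard error 0.034, edgeR adjusted p = 5e-05) and by 33.7% at 10 μM (0.42, adjusted p = 1.1e-08). It was also higher at 10 than at 5 μM (0.19, adjusted p = 0.0014). The level at 5 μM differed from the midpoint by 0.02 (adjusted p = 0.79). All 3 calls held in each of the 18 alternatives.

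Cd48, the GPI-anchored ligand of CD2 in the mouse, did not pass the test. It was at 48.3, 47.3 and 51.6 CPM at 0 μM. It was at 49.9, 47.5 and 51.4 CPM at 5 μM, and at 53.9, 50.8 and 51.9 CPM at 10 μM. Values of all groups overlapped. The log2 difference was 0.01 at 5 μM (95% interval −0.09 to 0.11, edgeR adjusted p = 0.88) and 0.09 at 10 μM (−0.01 to 0.19, adjusted p = 0.14). A change of Cd48 as large as that of Cd2 at 10 μM lies outside its interval.

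Slamf1, a receptor that binds itself on the neighbouring cell, was highest at 5 μM and lowest at 10 μM. Its level was 80.9, 83.8 and 79.8 CPM at 0 μM. It was 84.5, 84.5 and 86.1 CPM at 5 μM, and 73.4, 79.7 and 77.6 CPM at 10 μM. The groups did not overlap, but the lowest 0 μM and the highest 10 μM library were close, at 79.8 and 79.7 CPM. The log2 difference against 0 μM was 0.06 at 5 μM (95% interval −0.02 to 0.14, edgeR adjusted p = 0.24) and −0.08 at 10 μM (adjusted p = 0.089). Slamf1 fell by 0.14 between 5 and 10 μM (standard error 0.039, adjusted p = 0.024). That call was lost in 6 of 18 alternatives, with adjusted p of 0.0089 to 0.16, among them those without 5 μM replicate 1, 2 or 3 and without 10 μM replicate 1. Leaving out 10 μM replicate 2 brought the call at 10 against 0 μM (adjusted p = 0.041) and that against the midpoint (adjusted p = 0.03, from 0.093).

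**Figure D3:**
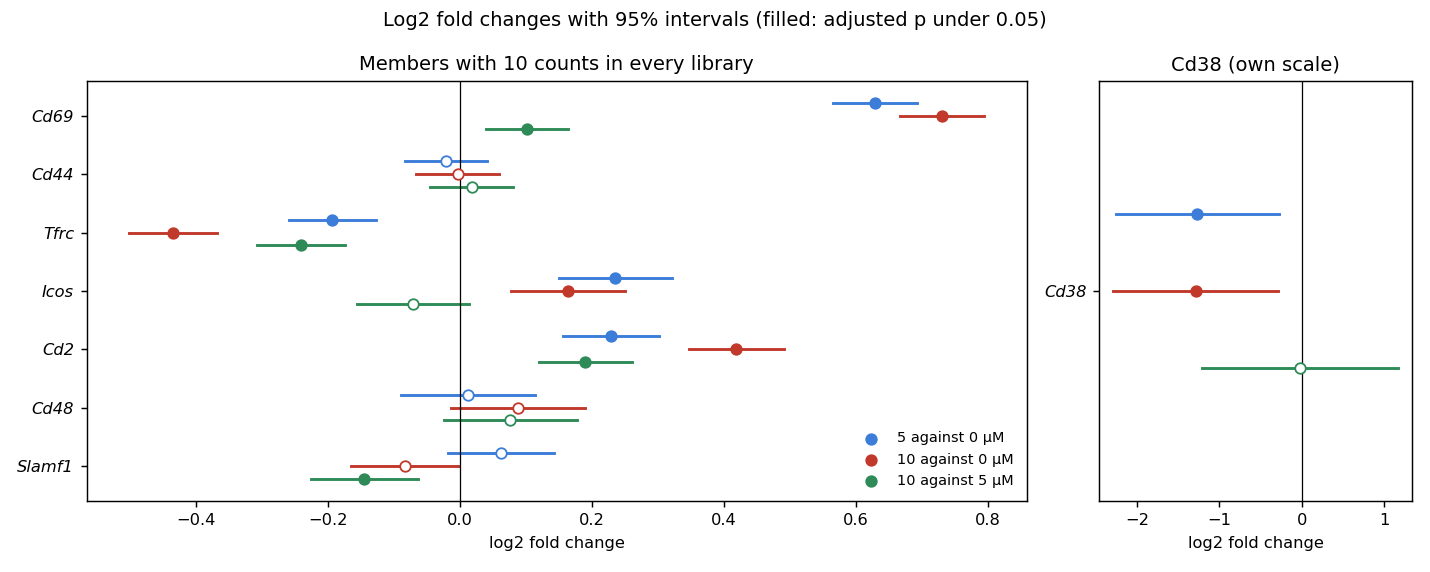
Log2 fold change (horizontal axis) of each gene for 5 against 0, 10 against 0 and 10 against 5 μM, with 95% intervals of edgeR's fit. Filled points have an adjusted p under 0.05, and Cd38 has a scale of its own. Tfrc is lower in every comparison, at −0.19, −0.43 and −0.24, and Cd44 and Cd48 have open points throughout.

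Between 10 and 5 μM, 4 of the 8 were called, Cd69 and Cd2 higher and Tfrc and Slamf1 lower, where 9% of all tested genes were called (4.92% higher and 4.09% lower, 599 and 498 genes, or 509 and 590 when scaled by library totals). The calls of Tfrc and Cd2 held in all 18 alternatives and those of Cd69 and Slamf1 did not, so the count fell to 2 in some of them. The groups did not overlap for 5 of the 7 genes other than Cd38, against 25.9% of all tested genes. No gene of the 8 changed by 1.5-fold between the concentrations.

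Cd48 and Slamf1 belong to a cluster of SLAM family receptors on chromosome 1, where RefSeq places Cd244a, Ly9, Slamf7, Cd48, Slamf1, Cd84 and Slamf6 side by side. Of 7 measured genes listed as the rest of the family and its adaptors, none rose, 4 fell at 5 μM and the same number fell at 10 μM (16.8% and 23.6% of all tested genes fell). The median log2 change was −0.15 and −0.31. Slamf6, a receptor that acts through the adaptor SAP, fell from 104 ± 2.17 to 93.6 ± 3.90 and 73.9 ± 4.50 CPM (SD, n = 3, edgeR adjusted p = 0.011 and 3.5e-08). Cd84 fell from 89.4 ± 1.92 to 80.5 ± 1.64 and 65.8 ± 0.249 CPM (adjusted p = 0.0028 and 1.2e-08). Sh2d1a, which encodes SAP, fell (log2 fold changes −0.33 and −0.27, adjusted p = 0.0028 and 0.008), and Slamf9 fell (log2 fold changes −0.92 and −1.35, adjusted p = 0.0011 and 2.3e-05). Ly9, within the same cluster, had log2 differences of 0.03 and 0.02 (adjusted p = 0.52 and 0.65). Slamf7, at 8.65 ± 0.668 CPM at 0 μM and named after its values were seen, had −0.17 and −0.31 (adjusted p = 0.32 and 0.051). Of the cluster, Cd84 and Slamf6 were thus lower at both concentrations, and Ly9, Slamf7, Cd48 and Slamf1 did not pass the test against 0 μM.

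Inside the cell, the tail of CD2 binds several partners. Of 5 measured, 1 rose and 1 fell at 5 μM and 2 rose and 1 fell at 10 μM. Over all tested genes, 33.1% and 47.3% were called. Cd2bp2 rose by 0.15 and 0.33 (edgeR adjusted p = 0.00049 and 3.1e-08). Sh3kbp1, which encodes the endocytic adaptor CIN85, fell (log2 fold changes −0.21 and −0.39, adjusted p = 1.8e-05 and 3.9e-09). Pstpip1, a regulator of actin, rose at 10 μM by 0.12 (adjusted p = 0.007) and had 0.02 at 5 μM (adjusted p = 0.63). Cd2ap had 0.04 and −0.03 (adjusted p = 0.51 and 0.57). The receptor and these partners did not move in 1 direction.

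Cd44, the hyaluronan receptor used as a lasting marker of activation, did not pass the test in any comparison. Its level was 193, 188 and 187 CPM at 0 μM. It was 187, 185 and 187 CPM at 5 μM, and 191, 193 and 183 CPM at 10 μM. The groups overlapped, with means of 189 ± 2.95, 187 ± 0.966 and 189 ± 5.24 CPM (SD, n = 3). The log2 difference was −0.02 at 5 μM (95% interval −0.08 to 0.04, edgeR adjusted p = 0.63) and −0.00 at 10 μM (−0.07 to 0.06, adjusted p = 0.93). A change of 0.1 in log2 in either direction lies outside both intervals. Cd44 is transcribed over an annotated small nuclear RNA, Gm23731, and how reads in the overlap were assigned is not known.

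Of 15 measured genes listed as partners of CD44, 1 rose and 5 fell at 5 μM, and 1 rose and 8 fell at 10 μM. Their median log2 change was −0.05 and −0.11, where 33.1% and 47.3% of all tested genes were called (16.8% and 23.6% lower). Hmmr, another hyaluronan receptor, which also acts on the mitotic spindle, fell (log2 fold changes −0.16 and −0.32, edgeR adjusted p = 0.0042 and 2e-06). Adam10 and Adam17, which encode proteases that cleave CD44 from the surface, were among those that fell. Adam10 had −0.16 and −0.32 (adjusted p = 0.0064 and 5.3e-06), and Adam17 had −0.29 at 10 μM (adjusted p = 6e-06). Mmp14, a protease on the same list named after its values were seen, was not called, with 0.25 and 0.27 (adjusted p = 0.58 and 0.5). At 5 μM, Adam17 had −0.09 (adjusted p = 0.061). Rdx, which encodes radixin, a link between CD44 and actin, fell at 10 μM by 0.15 (adjusted p = 0.00088) and had −0.03 at 5 μM (adjusted p = 0.56). Msn, which encodes moesin, another such link, was the 1 that rose, by 0.11 and 0.13 (adjusted p = 0.0089 and 0.0011). It was more abundant than Rdx (873 against 163 CPM at 0 μM) and was named after its values were seen.

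Tfrc, the transferrin receptor, fell with each concentration. It stood at 697, 701 and 692 CPM at 0 μM, the highest counts of the 8. It stood at 612, 593 and 622 CPM at 5 μM, and at 519, 537 and 490.4 CPM at 10 μM. The 3 groups did not overlap, with means of 697 ± 4.66, 609 ± 14.8 and 515 ± 23.3 CPM (SD, n = 3). Tfrc fell by 12.6% at 5 μM (log2 fold change −0.19, standard error 0.0315, edgeR adjusted p = 0.00011) and by 26.0% at 10 μM (−0.43, adjusted p = 2.4e-09). It also fell between 5 and 10 μM, by 0.24 on the log2 scale (adjusted p = 8.8e-05). All 3 calls held in each of the 18 alternatives, and the level at 5 μM differed from the midpoint by 0.02 (adjusted p = 0.71).

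Of 17 measured genes listed for iron handling and for the control of Tfrc, 3 rose and 2 fell at 5 μM, and 4 rose and 3 fell at 10 μM. Over the list the median log2 change was 0.09 and 0.01, where 33.1% and 47.3% of all tested genes were called. Aco1, which encodes iron regulatory protein 1, one of the proteins that bind the hairpins printed above, fell (log2 fold changes −0.12 and −0.22, edgeR adjusted p = 0.025 and 0.00024). Ireb2, which encodes the other, had 0.08 and −0.02 (adjusted p = 0.24 and 0.74). It was named after its values were seen. Zc3h12a, which encodes Regnase-1, an RNase known to degrade Tfrc mRNA, rose by 0.29 and 0.57 (adjusted p = 0.00039 and 7.2e-08). Myc, a transcription factor known to raise Tfrc, rose by 0.39 and 0.55 (adjusted p = 1.3e-07 and 4.1e-10). Any part of these genes in the level of Tfrc here was not tested.

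The ferritin chains, with the hairpin in the 5′ UTR, differed between themselves. Fth1, the heavy chain, was at 429 ± 8.47, 403 ± 13.3 and 422 ± 16.9 CPM at 0, 5 and 10 μM (SD, n = 3), a fall of 0.09 in log2 at 5 μM (edgeR adjusted p = 0.038) and −0.03 at 10 μM (adjusted p = 0.54). Ftl1, the light chain, rose at 10 μM by 0.17 (adjusted p = 0.00074) and had 0.09 at 5 μM (adjusted p = 0.054). The known action of the hairpin on ferritin is on translation, which these data do not measure. Close copies of both ferritin genes exist, and how reads that fit several places were assigned is not given in the sources used here.

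Cd38, the NAD-consuming ectoenzyme, was barely detected. Its rounded counts were 13, 15 and 20 in the 0 μM libraries. They were 7, 2 and 11 at 5 μM, and 6, 4 and 9 at 10 μM, which is 0.0813 to 0.845 CPM over all libraries. All treated libraries lay below the 0 μM libraries, with sums of 48, 20 and 19 counts. At least 10 counts were reached in 3, 1 and 0 libraries, so the gene passed the filter through the 0 μM group alone. The fitted log2 differences were −1.27 (standard error 0.47, edgeR adjusted p = 0.046) and −1.29 (adjusted p = 0.033), and rest on these few counts. They were lost in 11 of 16 and 6 of 17 alternatives that gave an adjusted p. Without 5 μM replicate 2, with its 2 counts and its liver transcripts, the difference at 5 μM was −0.76 (adjusted p = 0.23). Cd38 also overlaps an annotated long noncoding RNA, Gm16015.

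Of 15 measured genes of NAD metabolism, none rose and 5 fell at 5 μM, and 1 rose and 5 fell at 10 μM. The median log2 change was −0.08 and −0.10, where 33.1% and 47.3% of all tested genes were called (16.8% and 23.6% lower). Nampt, the rate-limiting enzyme of NAD salvage, fell from 116 ± 1.69 to 101 ± 0.742 and 87.9 ± 3.59 CPM (SD, n = 3, edgeR adjusted p = 0.00018 and 2.9e-08). Nt5e, which encodes the ectonucleotidase CD73, fell from 7.03 ± 0.848 CPM (log2 fold changes −0.77 and −1.03, adjusted p = 0.00019 and 5.2e-06). Parp1, which consumes NAD at DNA breaks, fell (log2 fold changes −0.13 and −0.19, adjusted p = 0.0019 and 2.9e-05). Parp14, another ADP-ribosyltransferase, fell at 10 μM by 0.20 (adjusted p = 8.7e-05) and had 0.02 at 5 μM (adjusted p = 0.65). Bst1, the paralogue next to Cd38 on chromosome 5, was as sparse as Cd38, at 0.686 ± 0.202, 0.415 ± 0.228 and 0.370 ± 0.127 CPM (SD, n = 3, adjusted p = 0.22 and 0.13).

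**Figure D4:**
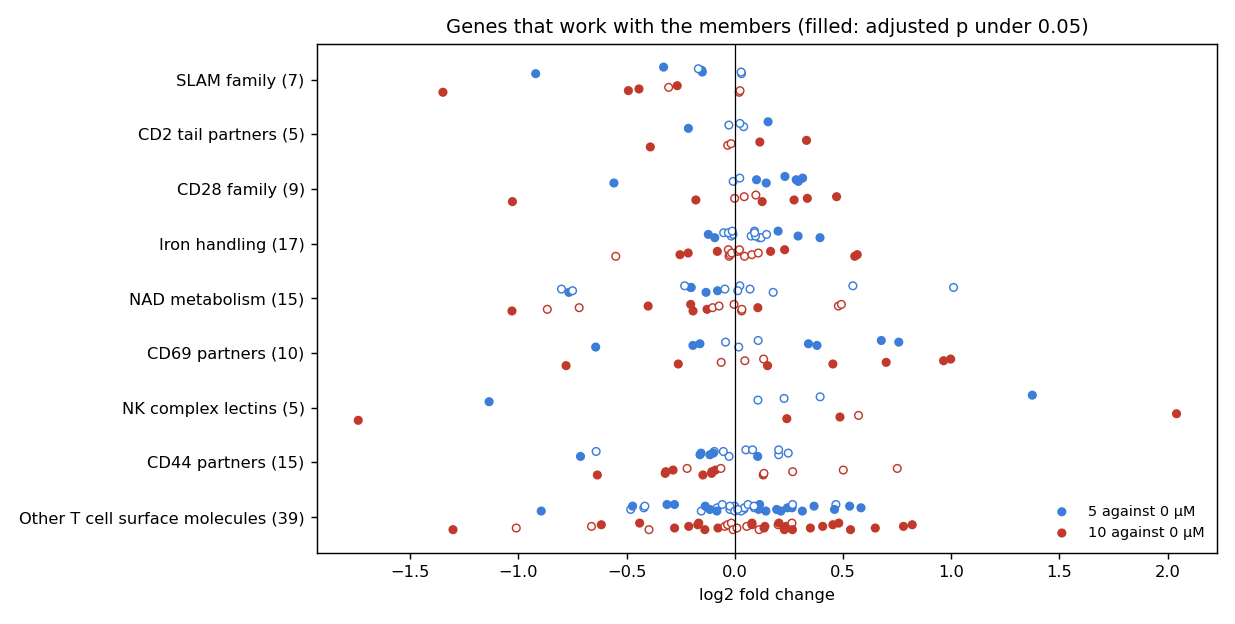
Log2 fold change (horizontal axis) at 5 and 10 μM against 0 μM for the measured genes of each list (rows, number of genes in brackets). Filled points have an edgeR adjusted p under 0.05. The SLAM family row has filled points only to the left of 0, and the other rows have them on both sides at 10 μM.

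To compare levels between genes, CPM were divided by the length of the longest coding transcript in kb, since longer messages give more reads. At 0 μM the order was Tfrc at 142 ± 0.952, Cd2 at 141 ± 1.08, Cd69 at 103 ± 3.55, Cd48 at 41.4 ± 1.91, Cd44 at 33.7 ± 0.526, Slamf1 at 30.3 ± 0.758, Icos at 17.1 ± 0.188 and Cd38 at 0.229 ± 0.0293 CPM per kb (SD, n = 3). Tfrc and Cd2 did not differ beyond the spread between libraries. That spread leaves out any error of the lengths, and which transcripts these cells express is not known. At 10 μM Cd2 led at 188 ± 9.10, followed by Cd69 at 170.2 ± 0.632 and Tfrc at 105 ± 4.77 CPM per kb. With these lengths, the leading gene of the list changed from Tfrc or Cd2 to Cd2, and Cd69 passed Tfrc.

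A wider list of 39 measured T cell surface molecules gave 12 that rose and 7 that fell at 5 μM, and 18 that rose and 9 that fell at 10 μM. The median log2 change was 0.03 and 0.08, where 33.1% and 47.3% of all tested genes were called. Il2ra, which encodes the activation marker CD25, rose from 415 ± 4.88 to 491 ± 4.71 and 489 ± 16.2 CPM (SD, n = 3, edgeR adjusted p = 3.1e-06 and 1.6e-06), with a log2 difference of −0.01 between the concentrations (adjusted p = 0.93). Tnfrsf18, the costimulator GITR, rose by 0.31 and 0.53 (adjusted p = 2.6e-06 and 8.2e-10), and Cd81, a tetraspanin, by 0.19 and 0.35 (adjusted p = 0.00013 and 4.8e-08). Thy1, the pan-T cell antigen CD90, fell from 224 ± 8.40 to 162 ± 1.70 and 146 ± 6.18 CPM (adjusted p = 9.5e-09 and 8.1e-11), and Ly6a, which encodes Sca-1, fell (log2 fold changes −0.89 and −1.30, adjusted p = 2e-07 and 9.1e-10). Cd40lg and Tnfrsf9, which encode the activation-induced CD40 ligand and 4-1BB and were named after their values were seen, fell (log2 fold changes −0.28 and −0.17 for Cd40lg, adjusted p = 0.00016 and 0.0067, and −0.14 and −0.17 for Tnfrsf9, adjusted p = 0.0033 and 0.00027).

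The genes whose levels followed each of the 8 most closely were found by Pearson's r of log2 CPM over the 9 libraries among 8930 genes, as a description, since the libraries share their 3 concentrations. For Cd69 they were Slfn1 (r = 0.996), Zmat3 (0.994) and Ercc5 and Ikzf3 (0.991 each). Slfn1 is a schlafen gene of quiescent T cells, and Ikzf3 encodes the lymphoid transcription factor Aiolos. For Tfrc they were Ctnnb1 and Eif4g2 (0.997 each), for Cd2 Lsp1 (0.991) and Aaas (0.990), and for Icos Xntrpc (0.979) and Elac1 (0.965). For Slamf1 they were Ahctf1 (0.972) and Dido1 (0.960), for Cd48 Cd96 (0.948) and Mgat1 (0.915), for Cd44 Itpr1 (0.912) and Gpn2 (0.908), and for the sparse Cd38 Spdl1 (0.959) and Trim16 (0.932). For Cd44, Cd48 and Slamf1 the pattern that is matched is small, with no difference from 0 μM past the test.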

How the data were processed

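Bulk RNA-seq of 9 libraries was analysed. The authors deposited a table of expected counts (estimated counts per gene) made from their reads, and the submitters' processing notes name GRCm39. Their methods name HISAT2, StringTie and DESeq2, whereas the tool that counted, its annotation and its use of strand were not given in the sources used here. Of the values, 24.1% were not whole, and they were rounded. Slamf1 had such values in 9 libraries, Cd38 in 7, Cd48 in 5, Cd2 in 4, and the other 4 genes in 0. Of 25757 entries, 964 share 70 symbols, none of them among the 8 genes. The matrix had 0 unused columns.

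Genes passing filterByExpr (12185) were tested in R 4.3.3 with edgeR 4.0.16 (TMM, quasi-likelihood F-test, two-sided, 1 fit of all 9 libraries, Benjamini-Hochberg over all tested genes). The standard error is the log2 fold change divided by the root of F. Every library held at least 10 counts for 11323 genes, and the common coefficient of variation was 3.65%. Replicates of a concentration differed by more than counting noise (chi-square of 2 to 5.45 per gene). The steps were tested on simulated data. Alternatives were other scaling, filters, DESeq2 1.42.0, fits of 2 groups, a replicate block and libraries left out. The midpoint test compares 5 μM with the mean of 0 and 10 μM in log2.

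Transcript lengths and UTRs were joined by symbol from GENCODE vM21 (GRCm38, a length for 95.2% of tested genes) and gene neighbours from RefSeq GRCm38.p6, so no gene coordinates are given. All 8 genes are named, with up to 4 genes per list by the smallest adjusted p at 10 μM, 13 genes fixed by name, and the 5 (Cd69) or 2 genes most like each by r of log2 CPM (prior count 2, mean of at least 3). A gene named by this rule is not reported here. The genes and lists were chosen with earlier results of these data known.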

Additional observations from a re-analysis of the deposited data

How the results depend on the processing

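Over 18 alternatives, Cd69, Tfrc, Icos and Cd2 kept their direction and their call at 5 and at 10 μM against 0 μM, with log2 fold changes of 0.60 to 0.65 and 0.70 to 0.75 for Cd69, −0.21 to −0.17 and −0.46 to −0.40 for Tfrc, 0.21 to 0.26 and 0.15 to 0.18 for Icos, and 0.22 to 0.25 and 0.38 to 0.46 for Cd2. Of 8 genes, 4 were called between 10 and 5 μM. This count was 2 with DESeq2 on the 2 groups, 2 without both libraries that carried liver, lung or erythroid transcripts, and 2 to 4 when 1 library was left out (2 without 5 μM replicate 1, 2 or 3 or 10 μM replicate 1). Of 2 genes called against the midpoint, 1 remained without both libraries, and 1 to 3 when 1 library was left out (1 without 5 μM replicate 1 or 2, and 3 without 10 μM replicate 2). The cause was not tested.

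Signs turned only for differences that were not called. Cd44 at 10 against 0 μM was 0.0038 with library totals and −0.017 to 0.020 with 1 library left out (above 0 without 0 μM replicate 1, 0.0091, or 10 μM replicate 3, 0.020). Cd48 at 5 against 0 μM ranged from −0.014 to 0.051, with −0.00010 once 0 μM replicate 1 was left out, −0.014 once 0 μM replicate 2 and −0.012 once 5 μM replicate 3. Cd48 against the midpoint was 0.00045 without 5 μM replicate 2, in a range of −0.056 to 0.00045, and 0.011 without both libraries. Cd38 between 10 and 5 μM ranged from −0.53 to 0.60, with 0.031 once 5 μM replicate 1 was left out, 0.60 once 5 μM replicate 3 and 0.20 once 10 μM replicate 2. Requiring 10 counts in every library removed Cd38, DESeq2 gave it no adjusted p in some comparisons, and fits of 2 groups give no midpoint value.

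The labels do not say whether samples with the same replicate number share an origin, and correlations this weak cannot settle it. The correlation of deviations was −0.0303 to 0.0871 for samples with the same number and over 0.1 in 0 of 9 pairs. For samples with other numbers it was −0.089 to 0.0416. With the replicate block 3941, 5728, 994 and 403 genes were called (4036, 5769, 1097 and 467 without) at 5 against 0, 10 against 0, 10 against 5 μM and against the midpoint, and 5, 5, 3 and 2 of the 8 genes, as Cd69 between 10 and 5 μM had an adjusted p of 0.061 in edgeR.

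Over all genes, the 1097 called between 10 and 5 μM were 643 with DESeq2 on the 2 groups, 677 without both libraries, 733 without 5 μM replicate 2 and 617 to 1467 without 1 library. The 467 against the midpoint were 853 with no filter, 184 without both libraries and 118 to 1073 without 1 library. Depth limits Cd38, with counts under 10 in most treated libraries.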

Other observations

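The 3′ UTRs of the 8 genes differ in the pentamer ATTTA, searched on the sense strand of the GENCODE vM21 transcript with overlapping copies counted, a core of the AU-rich elements known to shorten the life of messages. It occurred 2 times in the 936 bases of Cd69, 2 times in the 2606 bases of Icos, 1 time in the 58 bases of Cd2, 5 times in the 2458 bases of Tfrc, 6 times in the 2992 bases of Cd44, 6 times in the 2032 bases of Cd38, 4 times in the 1561 bases of Slamf1 and 0 times in the 379 bases of Cd48. Over all tested genes with a 3′ UTR the median was 1.27 per kb, against 17.2 for the short 3′ UTR of Cd2, 2.95 for Cd38, 2.56 for Slamf1, 2.14 for Cd69, 2.03 for Tfrc, 2.01 for Cd44, 0.767 for Icos and 0 for Cd48. The longer form TATTTAT was in Cd69 (1 copy), Tfrc (2), Cd44 (3) and Cd38 (1), and in 30.5% of all such 3′ UTRs. Genes that rose, fell or did not pass the test were thus found among those with the motif, and these letters were not set against the changes by any test.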
